A study of Mus musculus with 12 samples.

Results

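The genes described here are 10 members of the unfolded protein response and the integrated stress response, followed in splenic follicular B cells of the mouse. They were chosen by symbol: *Atf4*, *Ddit3*, *Xbp1*, *Hspa5*, *Herpud1*, *Dnajb9*, *Asns*, *Trib3*, *Chac1* and *Sesn2*, out of 13574 genes listed in the tables. All 10 had a row in the 4 h table and 9 had one at 0 h, where *Chac1* was below the cutoff of 10 reads over 6 libraries. After the filter on low counts, 8 members could be tested at 0 h (not *Trib3* or *Chac1*) and 9 at 4 h and across time (not *Chac1*).

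RNA was sequenced from CD23+ CD21/35- follicular B cells sorted from spleens of adult male mice that carried either an intact *Gpr174* gene (Gpr174+/Y, WT) or a reporter allele in place of its coding exon (Gpr174-/Y, KO). In the KO allele the fluorescent protein tdTomato takes the place of the receptor in every cell that uses the promoter. One set of cells was frozen straight from the sorter (0 h) and another was first kept for 4 h in complete RPMI 1640, a medium with serum and glutamine, with no stimulus added. Each combination of genotype and time is a group of 3 libraries, 4 groups in all, from 3 mice per genotype. No group received an agent, so the comparisons were WT against KO at each time, 4 h against 0 h in each genotype, and the difference between those culture changes.

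The 2 responses meet at the translation factor eIF2. Kinases that sense unfolded protein in the endoplasmic reticulum (ER), amino acid shortage, double-stranded RNA or heme shortage phosphorylate eIF2, which lowers general protein synthesis while the mRNA of the transcription factor ATF4 is translated more, so that *Atf4* mRNA does not measure ATF4 protein. ATF4 switches on genes of amino acid supply and, with long stress, *Ddit3*, which encodes the cell death factor CHOP. In the ER branch, the sensor IRE1 splices *Xbp1* mRNA into the form that encodes the active factor, and ATF6 and spliced XBP1 raise chaperones such as BiP, the product of *Hspa5*. B cells lean on this system when they become plasma cells. Counts per gene, as used here, do not separate spliced from unspliced *Xbp1*.

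Libraries held 6098941 to 11618787 counts. Ribosomal RNA precursor (*Rn45s*) took 9.94% to 11.3% of them in WT and 9.23% to 10.3% in KO at 0 h, and 7.78% to 11.2% in WT and 6.65% to 7.59% in KO at 4 h. The TMM factors, which scale for composition, were 0.942 to 0.982 at 0 h and 0.996 to 1.05 at 4 h. The factors thus moved with culture, while the *Rn45s* share was lower at 4 h without overlap only in KO and overlapped between times in WT. The part of both in the culture changes was not tested beyond the values given with library totals alone. The targeted gene, *Gpr174*, was lower in every KO library than in every WT library: 149, 149 and 157 CPM (counts scaled to a common library total) in WT against 73.4, 76.7 and 74.0 in KO at 0 h, and 163, 169 and 153 against 118, 106 and 105 at 4 h. Counts per gene do not show which part of the altered locus gave the reads left in KO. Follicular B cell genes, with *Ighd* not listed, summed to 6660 to 7070 CPM in WT and 6380 to 6530 CPM in KO at 0 h, and to 5230 to 5510 CPM in WT and 6090 to 6240 CPM in KO at 4 h. Marginal zone genes, mostly *Cr2*, summed to 1220 to 1290 CPM in WT and 1070 to 1250 CPM in KO at 0 h, and to 243 to 287 CPM in WT and 377 to 426 CPM in KO at 4 h. T cell genes (2.26 to 8.93 CPM), NK cell genes (1.67 to 5.71), neutrophil genes (20.1 to 124) and erythroid genes (32.1 to 89.0, 4 of 5 not listed) were low, and their sums overlapped between the groups. The neutrophil gene *Camp* was nevertheless called at 0 h, at 0.357 to 1.35 CPM in WT and 1.65 to 6.07 CPM in KO (log2 fold change -2.42, adjusted p = 0.0378). Macrophage genes summed to 73.1 to 81.3 CPM at 0 h and 26.1 to 46.8 CPM at 4 h, where *C1qa*, *C1qb* and *C1qc* were below the row cutoff.

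The level of each member was first compared as CPM per kilobase of exon, so that genes of different length can be set side by side. In WT cells at 0 h, *Hspa5* stood highest at 134 ± 1.82 CPM per kilobase (SD, n = 3). *Atf4* followed at 122 ± 2.78, *Herpud1* at 42.7 ± 1.81, *Xbp1* at 23.1 ± 0.734, *Ddit3* at 10.7 ± 1.87, *Dnajb9* at 7.24 ± 0.929 and *Sesn2* at 1.22 ± 0.127. *Asns*, at 0.393 ± 0.329, and *Trib3*, at 0.306 ± 0.329, were the lowest members listed, and their libraries overlapped. The other neighbours in this order did not overlap in WT at 0 h, whereas in KO at 0 h the libraries of *Hspa5* (120 to 151) and *Atf4* (116 to 127) did.

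After 4 h the order at the top turned. *Atf4* stood above *Hspa5* in WT, at 108 ± 5.89 against 100 ± 5.38 CPM per kilobase with overlapping libraries, and in KO, at 107 ± 1.88 against 95.0 ± 2.94 without overlap. At the bottom, *Asns*, *Trib3*, *Sesn2* and *Chac1* lay close together: in KO they ran from 0.976 ± 0.448 (*Chac1*) to 1.5 ± 0.416 (*Trib3*), and each neighbour in that order overlapped the next.

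**Figure D1:**
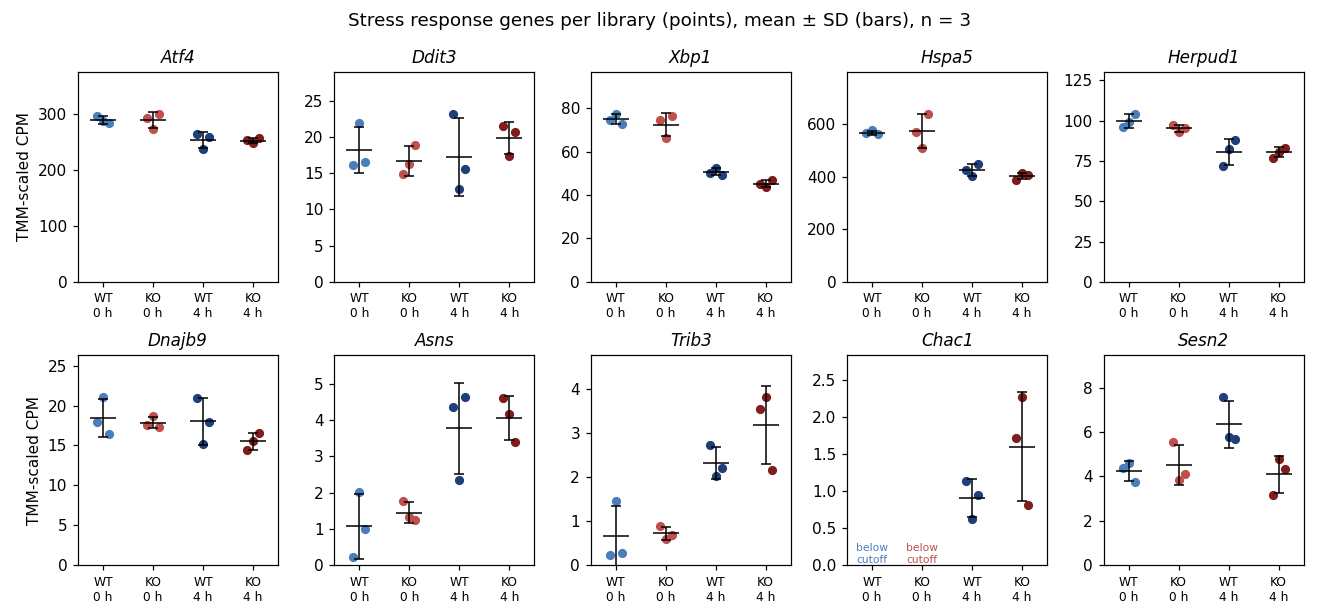
TMM-scaled CPM (y axis, linear from 0) of the 10 genes in each library of the 4 groups (x axis), with the mean and SD of 3 libraries; an error bar that would pass below 0 ends at the axis. *Xbp1*, *Hspa5*, *Atf4* and *Herpud1* sit lower in all 4 h libraries than in all 0 h libraries of the same genotype, *Asns* and *Trib3* sit higher, and *Chac1* has no row at 0 h. How many of all genes separate by time in this way was not computed.

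Promoter sequence is shown for the 3 members that were higher or first listed at 4 h and are known ATF4 targets (*Asns*, *Trib3*, *Chac1*), and for 2 ER members that fell (*Hspa5*, *Herpud1*), since the known control elements of the 2 branches can be read in them. Windows from 250 bases before to 50 after the gene start were taken from RefSeq, on GRCm38.p6, for all 10 members. They were searched on both strands for 5 elements. These were the C/EBP-ATF response element (CARE, TGATGNAA), bound by ATF4 with a partner, the cAMP response element (CRE, TGACGTCA), the unfolded protein response element (UPRE, TGACGTGG), the ER stress response element (ERSE: CCAAT, 9 bases of any kind, then CCACG) and ERSE-II (ATTGG, any base, then CCACG). CRE and UPRE share their first 6 letters, and none of the matches below overlap. Sequences run 5′ to 3′ on the strand of the gene, matched bases are in capitals, and positions count from 0 at the first base of the gene in RefSeq. The GENCODE M21 gene coordinates given further below start at other bases. By those coordinates the *Asns* CARE and the *Hspa5* ERSE lie inside the gene, and the *Trib3* CARE lies before its start.
Asns: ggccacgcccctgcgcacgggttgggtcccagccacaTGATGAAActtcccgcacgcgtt
Trib3: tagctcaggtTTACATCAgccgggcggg
Chac1: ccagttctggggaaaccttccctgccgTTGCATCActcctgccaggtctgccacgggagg
Hspa5: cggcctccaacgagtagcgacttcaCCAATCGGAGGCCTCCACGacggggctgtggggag
Herpud1: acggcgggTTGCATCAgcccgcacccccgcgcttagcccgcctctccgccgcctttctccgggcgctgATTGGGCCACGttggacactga

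The *Asns* stretch (chr6:7693210-7693269, minus strand) holds a CARE at -23 to -16 in the sense of the gene. The *Trib3* stretch (chr2:152344029-152344056, minus strand) and the *Chac1* stretch (chr2:119351022-119351081, plus strand) each hold a CARE read on the opposite strand, at 14 to 21 and at -193 to -186. The *Hspa5* stretch (chr2:34772000-34772059, plus strand) holds an ERSE at -65 to -47. In *Herpud1* (chr8:94386309-94386398, plus strand) a CARE on the opposite strand, at -112 to -105, is followed by an ERSE-II at -52 to -42. Among 32851 RefSeq windows of the same length, 3.97% held a CARE, 1.79% a CRE, 0.676% a UPRE, 0.119% an ERSE and 0.0365% an ERSE-II. No match to these letters lay in the windows of *Atf4*, *Ddit3*, *Xbp1*, *Sesn2* and *Dnajb9*. A match describes the sequence and does not show that a factor binds there.

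The first comparison asked how the members changed over 4 h of culture. In both genotypes the same 6 of 9 tested members passed an adjusted p of 0.05 by edgeR's quasi-likelihood test: *Atf4*, *Xbp1*, *Hspa5* and *Herpud1* fell, and *Asns* and *Trib3* rose. Over all 11572 genes tested, 15.1% were raised and 18.0% lowered in WT, and 10.3% were raised and 13.0% lowered in KO. The share of all genes whose 4 h and 0 h libraries did not overlap was not computed, so non-overlap between times is only described below. The median log2 fold change of the 9 members was -0.09 in WT and -0.20 in KO, beside 0.00484 and 0.0017 over all genes; with library totals alone it was 0.0131 in WT and -0.11 in KO. In bulk RNA, fewer cells that use a gene and less RNA per cell cannot be told apart.

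Among the transcription factors, *Xbp1* (chr11:5520659-5525893 in GENCODE M21, 3248 exonic bases) changed most. It was at 74.6, 77.4 and 72.7 CPM in WT at 0 h and at 50.2, 52.5 and 49.3 at 4 h. In KO it was at 74.5, 66.3 and 76.2 CPM and then at 45.3, 43.5 and 47.0. Every 4 h library lay below every 0 h library. The log2 fold change was -0.56 (SE 0.0747, adjusted p = 3.92e-06) in WT and -0.68 (SE 0.0763, adjusted p = 8.55e-07) in KO, which leaves 0.676-fold and 0.625-fold of the starting level.

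*Atf4* (chr15:80255184-80257541), the effector of the integrated stress response, fell by a small amount. WT libraries were at 296, 287 and 283 CPM at 0 h and at 264, 238 and 259 at 4 h, and KO libraries at 293, 273 and 300 and then at 253, 248 and 256. The groups did not overlap in either genotype. Its log2 fold change was -0.19 (SE 0.0556, adjusted p = 0.0129) in WT and -0.20 (SE 0.0558, adjusted p = 0.0139) in KO. This call depended on the scaling: with library totals in place of TMM factors, which moved the median of all genes to 0.113 in WT and 0.0916 in KO, *Atf4* was at -0.08 (WT) and -0.11 (KO) and neither passed. It was also lost without WT 4 h replicate 2 (-0.14), and in KO without KO 0 h replicate 1 (-0.18), KO 0 h replicate 3 (-0.17) or KO 4 h replicate 2 (-0.18).

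*Ddit3* (chr10:127290774-127296288), which encodes CHOP, did not pass the test in either genotype. It was at 16.2, 22.0 and 16.6 CPM in WT at 0 h and at 23.2, 12.8 and 15.6 at 4 h, so that 1 cultured library was above and 2 were below all of the fresh ones. KO libraries were at 14.9, 16.3 and 19.0 CPM and then at 21.6, 17.4 and 20.8. The log2 fold change was -0.09 (SE 0.179, adjusted p = 0.738) in WT and 0.25 (SE 0.181, adjusted p = 0.349) in KO, with 2-SE intervals on the fold of 0.732 to 1.2 and 0.927 to 1.53. *Ddit3* shares 68 exonic bases, 3.97% of its exon length, with *Mars* on the other strand, and the counting does not state whether it used strand.

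*Hspa5* (chr2:34771970-34777547) encodes BiP, the main ER chaperone, which also holds the stress sensors inactive. It was at 563, 576 and 562 CPM in WT at 0 h and at 424, 402 and 448 at 4 h. In KO it was at 569, 509 and 638 CPM and then at 388, 412 and 405. All cultured libraries were below all fresh ones, and the fresh KO libraries spread most. *Hspa5* fell by 0.42 on the log2 scale in WT (SE 0.0658, adjusted p = 3.82e-05) and by 0.51 in KO (SE 0.066, adjusted p = 5.43e-06).

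*Herpud1* (chr8:94386438-94395377) encodes an ER membrane protein of the pathway that degrades misfolded proteins. WT libraries were at 95.8, 99.0 and 104 CPM at 0 h and at 71.9, 82.2 and 87.7 at 4 h, and KO libraries at 97.4, 93.1 and 95.4 and then at 77.0, 80.6 and 83.3. The times did not overlap in either genotype. It fell by 0.30 on the log2 scale in WT (SE 0.0726, adjusted p = 0.00275) and by 0.25 in KO (SE 0.0736, adjusted p = 0.0175). With library totals alone it was at -0.19 and -0.16 and did not pass in either genotype, and in KO it also missed the threshold without KO 0 h replicate 1 (-0.23) or KO 4 h replicate 1 (-0.22).

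*Dnajb9* (chr12:44205559-44210326) encodes ERdj4, a co-chaperone of BiP. It was at 17.9, 21.1 and 16.4 CPM in WT at 0 h and at 21.0, 15.2 and 17.9 at 4 h, with full overlap. In KO it was at 17.6, 18.7 and 17.3 CPM and then at 14.5, 15.5 and 16.6, without overlap. Neither change passed: the log2 fold change was -0.03 (SE 0.138, adjusted p = 0.885) in WT and -0.20 (SE 0.143, adjusted p = 0.347) in KO.

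Values of the plasma cell markers, whose type has a high demand for these ER genes, are given beside them. The 6 listed genes, of which *Mzb1* and *Tnfrsf17* were not listed under those symbols, summed to 365 to 417 CPM at 0 h over both genotypes, to 470 to 520 CPM in WT at 4 h and to 397 to 431 CPM in KO at 4 h. Most of this was *Irf4*, which B cells also use. *Igj*, the joining chain, ranged from 10.7 to 51.2 CPM at 0 h and from 8.55 to 34.9 CPM at 4 h, with overlap. *Sdc1* rose in culture, with a log2 fold change of 1.64 in WT (adjusted p = 1.33e-07) and 2.84 in KO (adjusted p = 2.66e-09). It went from 7.59 to 7.84 CPM at 0 h to 21.4 to 29.0 CPM at 4 h in WT, and from 1.48 to 3.30 CPM to 15.9 to 18.9 CPM in KO. The genotypes differed at 0 h (1.64, adjusted p = 0.0101), and the rise was smaller in WT than in KO (interaction -1.20, adjusted p = 0.0115). *Prdm1*, the plasma cell regulator Blimp-1, rose in WT (0.96, adjusted p = 0.00965) and was at 0.46 in KO (adjusted p = 0.262). The part of these markers, and of the lower marginal zone and macrophage sums at 4 h, in the change of the ER genes was not tested.

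*Asns* and *Trib3* moved the other way, while *Sesn2* did not pass with TMM factors and *Chac1* could not be tested. *Asns* (chr6:7675169-7693254), which makes asparagine, was at 0.225, 2.02 and 0.982 CPM in WT at 0 h, from 2, 18 and 11 reads, and at 4.35, 2.34 and 4.64 at 4 h, from 27, 15 and 44 reads. In KO it was at 1.77, 1.33 and 1.24 CPM (14, 9 and 9 reads) and then at 4.61, 4.18 and 3.40 (35, 35 and 25 reads). Every cultured library was above every fresh one, and the smallest gap was in WT. The log2 fold change was 1.82 (SE 0.446, adjusted p = 0.00313) in WT and 1.47 (SE 0.44, adjusted p = 0.0182) in KO. At these depths the WT fold was bounded between 1.91 and 6.56 by 2 SE. The WT log2 fold change was 1.38 without WT 0 h replicate 1, the library of 2 reads, and 2.56 without WT 0 h replicate 2, that of 18 reads, and passed without any 1 library. The KO call was lost without KO 0 h replicate 2 (1.42), KO 0 h replicate 3 (1.37), KO 4 h replicate 1 (1.38) or KO 4 h replicate 2 (1.45).

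*Trib3* (chr2:152337422-152344032) encodes a pseudokinase that is induced by ATF4 and CHOP and restrains them. It was at 0.225, 1.46 and 0.268 CPM in WT at 0 h (2, 13 and 3 reads) and at 2.74, 2.03 and 2.21 at 4 h (17, 13 and 21 reads). KO libraries were at 0.884, 0.592 and 0.688 CPM (7, 4 and 5 reads) and then at 3.55, 3.82 and 2.17 (27, 32 and 16 reads). *Trib3* rose without overlap in both genotypes, and WT 0 h replicate 2 stood far above the other fresh WT libraries. It failed the filter on low counts at 0 h and passed it in the culture fit only with the 4 h libraries, where it is high. Its entry into the test thus depended on the rise. The log2 fold change was 1.86 (SE 0.518, adjusted p = 0.00832) in WT and 2.11 (SE 0.508, adjusted p = 0.00399) in KO. Without 1 library at a time it ran from 1.44 to 3.14 in WT, the highest without WT 0 h replicate 2, and from 1.96 to 2.32 in KO, and stayed past the threshold. The WT call held narrowly: over all alternatives run the highest adjusted p was 0.0494 in WT and 0.0233 in KO.

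*Chac1* (chr2:119351229-119354381), whose enzyme breaks down glutathione, was listed only at 4 h, at 1.13, 0.625 and 0.949 CPM in WT (7, 4 and 9 reads) and at 1.71, 2.27 and 0.815 CPM in KO (13, 19 and 6 reads). The genotypes overlapped. As it had no row at 0 h, its 6 libraries there held at most 9 reads together. If all 9 fell in 1 genotype, the pooled level at 4 h was at least 2.92-fold higher in WT and at least 3.97-fold higher in KO. This bound covers counting only and carries no test.

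*Sesn2* (chr4:132492032-132510501), which encodes a leucine-binding brake on mTORC1, was also measured at low counts. WT libraries were at 4.39, 4.59 and 3.75 CPM at 0 h and at 7.58, 5.78 and 5.69 at 4 h. KO libraries were at 5.56, 3.85 and 4.13 CPM and then at 3.16, 4.78 and 4.35. All cultured WT libraries were above the other 9 libraries, from 37 to 54 reads each. The culture change in WT was 0.58 on the log2 scale (SE 0.242, adjusted p = 0.0733) and did not pass. With library totals alone it was 0.68 and passed (adjusted p = 0.0294). In KO it was -0.14 (SE 0.258, adjusted p = 0.749).

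**Figure D2:**
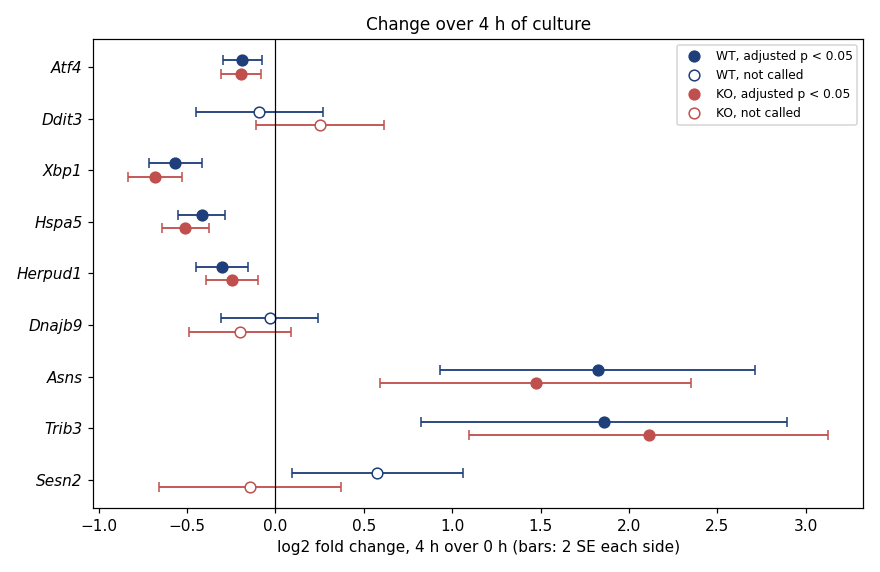
Log2 fold change of 4 h over 0 h (x axis, bars of 2 SE each side) for the 9 members tested (y axis), in WT (blue) and KO (red), filled where the adjusted p was under 0.05. *Atf4*, *Xbp1*, *Hspa5* and *Herpud1* lie left of 0 and *Asns* and *Trib3* right of it in both genotypes, with much wider bars for the latter pair.

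The second comparison asked whether loss of GPR174 altered the members. At 0 h, 0 of 8 tested members were called by edgeR, 0 had an unadjusted p under 0.05 and 0 were called by DESeq2, beside 0.502% of all genes called higher in WT and 0.485% called higher in KO. At 4 h, 0 of 9 were called by edgeR and 0 by DESeq2, while 1, *Sesn2*, had an unadjusted p under 0.05. At that time WT was above KO for 5.22% of all genes by the same rule and KO above WT for 5.67%. The test of the difference between the culture changes called 0 of 9 members with edgeR, with DESeq2 and at an unadjusted p under 0.05, where it called 2.45% of all genes with the WT change above that in KO and 3.94% with it below.

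A missed threshold does not show equal levels, so the intervals are given. At 4 h the 2-SE interval on the fold of WT over KO was 0.927 to 1.09 for *Atf4*, 0.903 to 1.12 for *Herpud1* and 0.974 to 1.15 for *Hspa5*. These abundant members were thus placed within narrow bounds. For *Ddit3* it was 0.670 to 1.10, for *Dnajb9* 0.950 to 1.41, for *Asns* 0.628 to 1.42 and for *Trib3* 0.465 to 1.13. The depth of the last pair, 13 to 44 reads per library at 4 h, did not allow narrower bounds.

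Of the 9 members tested, *Sesn2* and *Xbp1* had all WT libraries above all KO libraries at 4 h, as did 14.4% of all genes, and neither passed the test. For both the values overlapped at 0 h. For *Sesn2* the log2 fold change of WT over KO at 4 h was 0.62 (SE 0.248, adjusted p = 0.14), with an interval on the fold of 1.09 to 2.16. It was 0.46 to 0.75 when 1 library was left out in turn. The interaction, its culture change in WT minus that in KO, was 0.72 (SE 0.354, adjusted p = 0.304). For *Xbp1* the values were 0.16 at 4 h (SE 0.0814, adjusted p = 0.251) and 0.11 for the interaction (SE 0.107, adjusted p = 0.666).

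**Figure D3:**
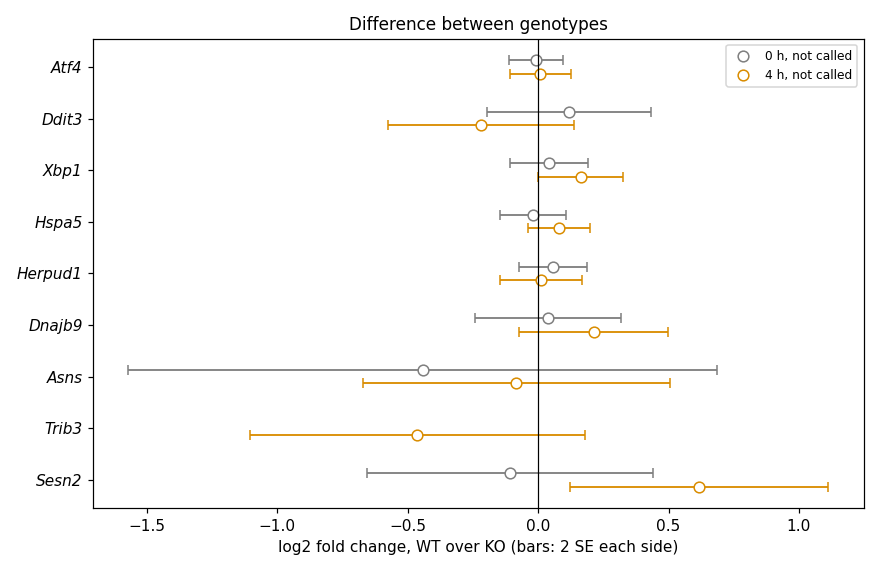
Log2 fold change of WT over KO (x axis, bars of 2 SE each side) for each member tested (y axis) at 0 h (grey) and 4 h (orange); all points are open since none had an adjusted p under 0.05. The 4 h interval of *Sesn2* lies right of 0, from 1.09-fold to 2.16-fold, and those of *Asns* and *Trib3* are the widest at 4 h.

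The members were then set among 115 other genes of the 2 responses in 10 lists, of which 102 could be tested across time. In WT 34 rose and 18 fell, and in KO 28 rose and 20 fell, which is 51.0% and 47.1% of those tested, beside 33.1% and 23.3% of all genes. The lists moved unlike each other. At 0 h, 0 of 98 tested differed between genotypes by edgeR, with 10 at an unadjusted p under 0.05 and 0 by DESeq2. At 4 h 8 of 101 did, 7.92% beside 10.9% of all genes. Culture changes differed between genotypes for 6 of 102, 5.88% beside 6.39% of all genes. Neither share stood above that of all genes.

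Calls in the amino acid lists leaned up, as *Asns* did. Cytosolic tRNA synthetases, which charge tRNAs with amino acids, rose in 12 of 12 in WT and 11 of 12 in KO, with median log2 fold changes of 0.47 and 0.51. The largest were *Cars* for cysteine (0.90, SE 0.113, adjusted p = 1.84e-06 in WT and 1.07, SE 0.114, adjusted p = 4.01e-07 in KO), *Lars* for leucine in WT (0.68), *Aars* for alanine (0.59 in WT and 0.69 in KO) and *Mars* for methionine in KO (0.60). *Cars* went from 26.7 to 35.1 CPM at 0 h over both genotypes to 53.1 to 71.1 CPM at 4 h. Under library totals alone 12 of 12 rose in both genotypes. That setting moved the median of all genes up, to 0.113 in WT and 0.0916 in KO, so it is no check on a rise.

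Of 9 tested enzymes of amino acid and one-carbon synthesis, 5 rose in WT and 4 in KO, and 0 fell in either. *Mthfd2*, of mitochondrial folate metabolism, rose by 0.92 in WT and 0.81 in KO on the log2 scale. *Aldh18a1*, which starts proline synthesis, rose by 0.90 and 0.84, and *Psat1*, of serine synthesis, by 0.67 and 0.52. Of 8 tested amino acid transporters, 5 rose and 1 fell in WT, and 4 rose and 1 fell in KO. The neutral amino acid carrier *Slc1a4* rose by 2.28 in WT (SE 0.404, adjusted p = 0.000146) and 2.24 in KO (SE 0.391, adjusted p = 0.000202), from 5 to 12 reads per library at 0 h to 14 to 47 at 4 h. *Slc7a5*, the large neutral amino acid carrier LAT1, rose by 1.14 and 1.03. The glycine carrier *Slc6a9* rose by 2.61 and 1.40, from 9 reads in all in WT at 0 h. Neither *Slc1a4* nor *Slc6a9* passed the filter on low counts at 0 h, and both entered the culture fit only with the 4 h libraries. Without that filter the transporter counts were the same, 5 and 1 in WT and 4 and 1 in KO. The one that fell in both genotypes was the glutamine carrier *Slc1a5* (-0.31 and -0.22), and its KO call was lost with library totals alone. The 5 transporters called in KO came to 3 without KO 0 h replicate 1 or 3 or without KO 4 h replicate 1 or 2.

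Among ER chaperones more genes fell than rose, while calls in the other ER lists did not lean down. Of 21 ER chaperones and folding enzymes, 10 fell and 2 rose in WT, and 12 fell and 1 rose in KO. Their median log2 fold change was -0.19 and -0.21, and with library totals alone 6 fell and 3 rose in WT and 9 fell and 2 rose in KO. Without WT 4 h replicate 2, 7 of the 21 were called in WT. *Sdf2l1*, which works with BiP, fell by 0.98 in WT and 0.86 in KO on the log2 scale, and *Txndc5*, a disulfide isomerase, by 0.98 and 0.62. The prolyl isomerase *Fkbp11* fell by 1.09 in WT (SE 0.368, adjusted p = 0.0277), and *Fkbp2*, of the same family, by 0.70 in KO. The WT libraries of *Fkbp11* overlapped, at 4.05 to 7.28 CPM at 0 h and 1.48 to 4.52 CPM at 4 h, the latter from 10 to 28 reads each. Of 13 genes of ER-associated degradation, 2 fell and 2 rose in WT and in KO, near the shares of all genes (18.0% lowered and 15.1% raised in WT, 13.0% and 10.3% in KO). With library totals alone 4 rose and 2 fell in WT. *Edem1*, which picks out misfolded glycoproteins, fell by 0.48 and 0.58, and the ubiquitin ligase *Syvn1* by 0.40 and 0.31. The lectin *Erlec1* rose by 0.44 in KO. Of 12 translocation genes, 2 rose in WT (*Ssr4*, 0.40, and *Spcs1*, 0.30) and 1 in KO (*Ssr4*, 0.32). These counts were near the raised shares of all genes, 15.1% in WT and 10.3% in KO. With library totals alone 6 rose in WT and 4 in KO, so the count depended on the scaling. In that setting 3000 of all 11572 genes rose in WT and 2168 in KO. With TMM factors the WT calls were lost without WT 4 h replicate 1 and 1 was called without WT 4 h replicate 3, and 0 were called in KO without KO 0 h replicate 1 or 3, KO 4 h replicate 1 or 2 or WT 4 h replicate 3.

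The sensors upstream of the members split. Of 7 tested, 3 rose and 3 fell in WT and 2 rose and 2 fell in KO. Of all genes, 15.1% rose and 18.0% fell in WT, and 10.3% rose and 13.0% fell in KO. *Eif2ak3*, which encodes the ER kinase PERK, rose by 1.19 in WT (SE 0.0584, adjusted p = 8.15e-13) and 0.64 in KO (SE 0.0601, adjusted p = 5.65e-08) on the log2 scale. *Ern1*, which encodes the nuclease IRE1 that splices *Xbp1*, rose by 0.60 (SE 0.212, adjusted p = 0.0351) and 0.80 (SE 0.221, adjusted p = 0.0113). Its WT libraries overlapped, at 5.09 to 9.52 CPM at 0 h and 9.19 to 13 CPM at 4 h. *Eif2ak2*, the RNA-sensing kinase PKR, fell by 0.66 and 0.93. Of 10 genes of eIF2, its exchange factor and its phosphatases, 1 rose and 1 fell in each genotype, not above the shares of all genes. *Ppp1r15b*, a phosphatase subunit, fell by 0.26 and 0.35, *Eif2b2* rose by 0.23 in WT and *Eif2s2* by 0.34 in KO. The WT count of 2 was 0 without WT 0 h replicate 3 and 1 without replicate 1 of WT 0 h, replicate 1 or 3 of WT 4 h or replicate 1 of KO 0 h. With library totals alone 6 rose in WT, as did 3000 of all 11572 genes. Of 5 further transcription factors, 0 were called in WT by edgeR or DESeq2, and *Creb3* fell by 0.48 in KO. Of 5 tested other targets of ATF4 or CHOP, 2 rose and 1 fell in both genotypes. The death genes *Bbc3* (1.52 and 1.63) and *Bcl2l11* (1.30 and 0.71) rose, and *Ddit4*, an mTORC1 brake like *Sesn2*, fell by 2.88 and 2.52, from 37.4 to 63.6 CPM over the 0 h libraries to 6.52 to 9.68 CPM over those at 4 h. The rise of *Bbc3* rests on 8 to 13 reads per library at 0 h and 20 to 32 at 4 h.

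**Figure D4:**
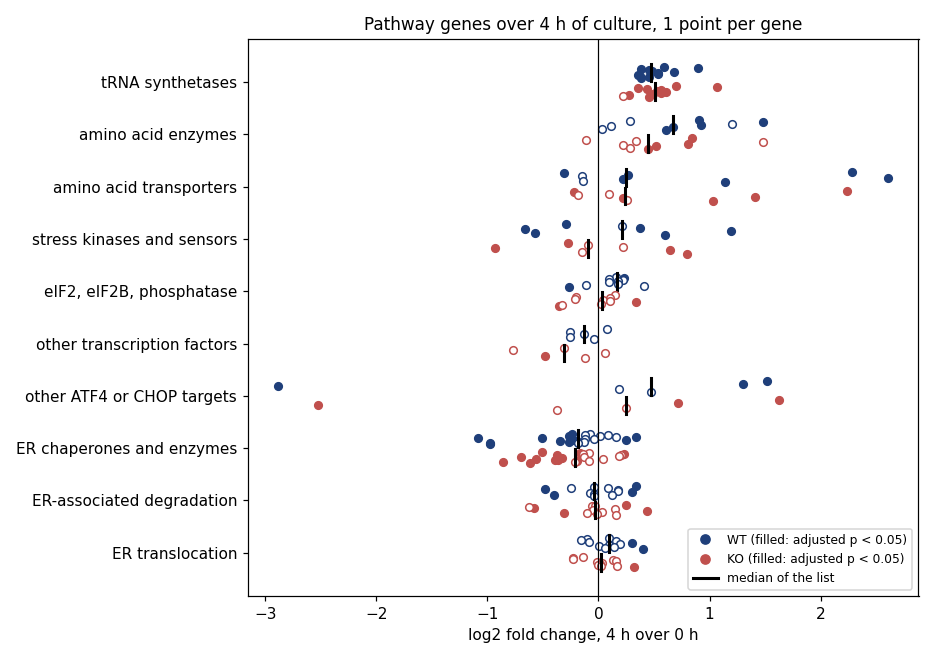
Log2 fold change of 4 h over 0 h (x axis) of each tested gene in the 10 pathway lists (y axis), in WT (blue) and KO (red), filled where the adjusted p was under 0.05, with the list median as a black line. All 12 tRNA synthetases lie right of 0, most ER chaperones lie left of it, and *Ddit4* stands alone at the far left.

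Of the 8 pathway genes called between genotypes at 4 h, 6 were higher in WT and 2 in KO. The 4 with the largest differences are given first. *Eif2ak3* was at 212, 221 and 211 CPM in WT and at 137, 146 and 146 in KO, a log2 difference of 0.59 (SE 0.059, adjusted p = 5.74e-06), while at 0 h the genotypes ran from 88.5 to 96.1 CPM together. *Got1*, which encodes the cytosolic aspartate aminotransferase, was at 105, 128 and 124 CPM in WT and at 62.9, 48.7 and 60.7 in KO (1.05, SE 0.0967, adjusted p = 2.36e-06). *Bcl2l11*, which encodes BIM, was at 175, 162 and 179 CPM in WT and at 109, 104 and 102 in KO (0.71, SE 0.063, adjusted p = 1.55e-06). *Ppp1r15a*, which encodes the eIF2 phosphatase subunit GADD34, was at 30.2 to 42.6 CPM in WT and 17.8 to 24.4 CPM in KO (0.85, SE 0.141, adjusted p = 0.000793). All 4 had every WT library above every KO library, as did 14.4% of all genes. They were picked as the largest called differences, so this non-overlap adds no support. The other called genes were *Hsp90b1* (0.28) and *Edem3* (0.23), higher in WT, and *Txndc5* (-0.42) and *Eif2ak4* (-0.38), the amino acid sensing kinase GCN2, higher in KO. *Edem3* was not called without WT 4 h replicate 3 or without any 1 of the KO 4 h libraries, and 1 of the 2 sensors was called without KO 4 h replicate 1. B cell markers also differed between the genotypes at 4 h: *Cr2* (-0.91, adjusted p = 9.2e-06), *Fcer2a* (-0.90, adjusted p = 4.31e-08) and *Ms4a1* (-0.59, adjusted p = 0.000168) were lower in WT, and the plasma cell gene *Irf4* was higher (0.23, adjusted p = 0.0344). The part of these markers in the genotype differences was not tested.

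Over the 12 libraries, which share their 4 groups, the genes whose log2 CPM ran most like *Xbp1* among 11572 included *Fes* (Pearson r = 0.98) and *Stt3b* (0.979). For *Atf4* they were *3110003A17Rik* (0.966), *Coro1a* (0.961) and *Polr1d* (0.96). For *Ddit3*, which passed no test between groups, they were *4930520O04Rik* (0.867), *Rnf14* (0.842) and *Rpusd2* (0.84). These are descriptions over libraries that differ by time, with no test.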

How the data were processed

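The authors amplified total RNA with the NuGEN Ovation RNA-seq System V2 and, per the labels, used STAR, HTSeq and mm10, and DESeq2 for their own tests. Versions, annotation and strand setting are not given in the sources used here. Raw whole-number counts were deposited in a table for each time, which lists only genes with at least 10 reads over its 6 libraries. Here, counts were tested with edgeR 4.0.16 (TMM factors, filterByExpr at 10 counts, quasi-likelihood test, Benjamini-Hochberg over all tested genes) in R 4.3.3. Genotype contrasts used the 6 libraries of a time, and culture and interaction contrasts all 12 on genes in both tables. SE was the log2 fold change over the root of F. CPM used TMM factors over 12 libraries, and exon lengths and gene coordinates came from GENCODE M21 (GRCm38). Alternatives were DESeq2 1.42.0, library totals, no filter, other samples in the fit, a replicate block and leaving out each library. Replicate libraries differed by more than counting noise (chi-square per degree of freedom 1.943 to 9.3). Precision rests on 3 mice per group, and amplified reads without molecular identifiers are not independent molecules. Deviations of same-numbered libraries at 0 h and 4 h correlated at 0.15, 0.178 and 0.153 in WT and at -0.0231, 0.0782 and 0.0795 in KO. Differently numbered pairs ran from -0.132 to -0.0336 in WT and from -0.0859 to 0.0171 in KO. Across genotypes, WT 4 h replicate 2 and KO 4 h replicate 1 reached 0.312. The labels do not say whether a number marks 1 mouse.

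All 10 members were named, with at most 3 called genes of the largest change per list and comparison, and the 3 genes most correlated with *Atf4*, *Ddit3* and *Xbp1*. Some genes that this rule selects are not reported here. Members and lists were chosen with earlier results of these data known.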

Additional observations from a re-analysis of the deposited data

Results flagged for a closer look

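Culture changes differed between genotypes, by edgeR's interaction test, for 6 of 102 genes of the pathway lists (5.88%, beside 6.39% of all genes) and for 0 of 9 tested members. The culture change in WT minus that in KO was 1.14 on the log2 scale for *Got1* (SE 0.23, adjusted p = 0.0026), 0.59 for *Bcl2l11* (SE 0.115, adjusted p = 0.00197), 0.55 for *Eif2ak3* (SE 0.0835, adjusted p = 0.000143) and 0.43 for *Eif2b2* (SE 0.118, adjusted p = 0.0304). It was 0.31 for *Hsp90b1* (SE 0.0825, adjusted p = 0.0261) and -0.36 for *Txndc5* (SE 0.0774, adjusted p = 0.00507). *Got1* rose by 1.48 in WT, while its KO value of 0.34 was not called (SE 0.168, adjusted p = 0.163). *Bcl2l11* and *Eif2ak3* rose in both and more in WT, *Hsp90b1* fell by 0.34 in KO while its WT value was -0.04, and *Txndc5* fell in both and more in WT. *Eif2b2* changed by 0.23 in WT and -0.20 in KO, and its call was lost without KO 0 h replicate 1 or 2, KO 4 h replicate 1, WT 0 h replicate 3 or WT 4 h replicate 1 or 3. Of *Hsp90b1* and *Txndc5*, 1 was called without KO 0 h replicate 1 or 3, KO 4 h replicate 1 or 2, WT 0 h replicate 2 or 3 or WT 4 h replicate 3.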

How the results depend on the processing

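Of 664 comparisons of a member's log2 fold change with its value under an alternative, 613 kept their direction and side of the threshold. The calls for *Xbp1*, *Hspa5* and *Trib3* held under all alternatives run, that of *Trib3* in WT only narrowly (highest adjusted p = 0.0494). The calls lost for *Atf4*, *Herpud1* and *Asns* are given with each gene. 4 small values changed sign with library totals alone: *Atf4* (-0.0132) and *Herpud1* (-0.0082) between genotypes at 4 h, and *Ddit3* (0.0131) and *Dnajb9* (0.074) over culture in WT.

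When 1 library was left out in turn, values that changed sign ran as follows, and none of them was called. Between genotypes at 0 h they were -1.1822 to 0.0049 for *Asns*, -0.0421 to 0.0167 for *Atf4*, -0.0334 to 0.2151 for *Ddit3*, -0.0665 to 0.1191 for *Dnajb9*, -0.0923 to 0.0623 for *Hspa5*, -0.2014 to 0.0779 for *Sesn2* and -0.0124 to 0.0748 for *Xbp1*. At 4 h they were -0.2804 to 0.1476 for *Asns*, -0.025 to 0.051 for *Atf4* and -0.0559 to 0.0786 for *Herpud1*. Over culture they were -0.3446 to 0.0689 for *Ddit3* and -0.1437 to 0.0709 for *Dnajb9* in WT and -0.2724 to 0.0402 for *Sesn2* in KO. For the interaction they were -0.0935 to 1.0823 for *Asns*, -0.0191 to 0.0529 for *Atf4*, -0.1238 to 0.0221 for *Herpud1* and -0.6676 to 1.0296 for *Trib3*.

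The count of all genes called at 0 h, 112, ran from 26 to 161 without 1 library, with 4 fits that moved it by over 1.5 times. Leaving out KO 0 h replicate 1 gave 26 and replicate 3 of that group gave 55, while leaving out WT 0 h replicate 2 gave 50 and replicate 3 of that group gave 59. At 4 h it was 1212, ran from 776 to 1361, and was 776 without KO 4 h replicate 1. The cause was not tested. With library totals alone 37 genes were higher in WT and 68 in KO at 0 h, in place of 57 and 55, and over culture 3000 rose and 1500 fell in WT, in place of 1750 and 2080, and 2168 rose and 1101 fell in KO, in place of 1193 and 1503. With a replicate block the members called stayed at 0 at 0 h, 0 at 4 h, 6 over culture in WT, 6 in KO and 0 for the interaction, and the block changed no member's call. Depth limits *Asns*, *Trib3*, *Chac1* and *Sesn2*, which had at most 54 reads in any library.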
